A study of Homo sapiens with 2 samples.

Results

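The 10 genes described here encode the alpha and beta tubulins TUBA1A, TUBA1B, TUBA1C, TUBA4A, TUBB, TUBB2A, TUBB2B, TUBB3, TUBB4B and TUBB6, and they were examined for peaks of asymmetric dimethylation of histone H4 at arginine 3 (H4R3me2a) in HCT116 cells. HCT116 is an established human colorectal carcinoma line. The cells received no drug and were fixed with 1% formaldehyde for 10 min, and their chromatin was sonicated to 200 to 500 bp. A single library immunoprecipitated with an H4R3me2a antibody was compared with a single library of input DNA, both read as paired ends of 150 bp. Neither group had a replicate, so the values below have no check by replicates and no test was made. The genes were chosen by a reading of earlier results of the same peak table, and their peaks were selected on summit position: a summit had to lie in the gene body or no more than 1 kb from a transcription start site (TSS) that the annotation gives to the gene. By this rule the 10 genes, of 19970 protein-coding genes in all, held 16 of the 33353 deposited peaks. A peak list carries no expression values, so the identity of the cells was not checked here.

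Microtubules are hollow polymers of dimers of alpha- and beta-tubulin, and they form the mitotic spindle, the tracks of intracellular transport and the core of cilia. Humans make each tubulin from several genes, called isotypes, whose proteins are nearly identical except at the C-terminal tail, where most modifying enzymes and many associated proteins act. TUBA1B, TUBA1C, TUBB, TUBB4B and TUBB6 are known as widely expressed isotypes, while TUBA1A, TUBB2A, TUBB2B and TUBB3 are rich in neurons or brain. The latter are called neuronal below, although TUBA1A and TUBB2A are also made outside the brain. TUBB3 is a common marker of neurons that some carcinomas also make. TUBA4A is known from platelets, muscle and brain as well as other tissues and was placed in neither class. H4R3me2a is deposited chiefly by PRMT1 and is generally associated with transcriptionally active chromatin.

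Peaks were called at 7 of the 10 genes and were distributed unevenly among them. TUBB3 had 7 peaks, TUBA1C had 4, and TUBA1B, TUBA4A, TUBB2A, TUBB4B and TUBB6 had 1 each. TUBA1A, TUBB and TUBB2B had none. By the same rule 47.2% of all protein-coding genes had a peak, and 11.9% had 4 or more. Within 1 kb of any annotated TSS, 4 of the 10 genes had a summit (TUBA1B, TUBA4A, TUBB2A and TUBB3) against 31.6% of all genes. Within 1 kb of the canonical TSS, that of the transcript which the annotation takes as representative, 3 did (TUBA4A, TUBB2A and TUBB3) against 21.4%. Because the genes were chosen with the peaks known, these counts describe the list and support nothing beyond it.

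The sequences at the summits that the description turns on are given below in the direction of transcription of the gene, from GRCh38, in lower case with each CpG dinucleotide in capitals. The peaks of TUBB2A and TUBA4A and peak 1 of TUBB3 lay in CpG-rich sequence within 1 kb of the canonical TSS, and peak 2 of TUBB3 lay in CpG-rich sequence further inside the gene, 2893 bp downstream. The 121 bp centred on these summits are shown for that reason.
TUBB2A, chr6:3157295-3157415, minus strand: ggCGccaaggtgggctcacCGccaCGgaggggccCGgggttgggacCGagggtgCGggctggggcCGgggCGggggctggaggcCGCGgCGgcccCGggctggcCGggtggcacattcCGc
TUBA4A, chr2:219253727-219253847, minus strand: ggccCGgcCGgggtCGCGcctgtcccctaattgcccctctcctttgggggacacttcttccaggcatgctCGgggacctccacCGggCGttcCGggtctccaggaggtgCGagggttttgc
TUBB3 peak 1, chr16:89923617-89923737, plus strand: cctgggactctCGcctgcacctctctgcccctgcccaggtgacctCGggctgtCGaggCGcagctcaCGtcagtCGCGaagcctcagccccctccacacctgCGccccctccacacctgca
TUBB3 peak 2, chr16:89926175-89926295, plus strand: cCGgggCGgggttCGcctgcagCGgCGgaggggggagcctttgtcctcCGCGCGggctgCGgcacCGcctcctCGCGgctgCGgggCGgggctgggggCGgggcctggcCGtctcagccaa

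These stretches held 14 CpGs at TUBB2A, 9 at TUBA4A, 8 at the most upstream peak of TUBB3 and 16 at the next. The peak of the widely expressed alpha isotype TUBA1B was poorer in CpGs and is shown for contrast. In the 401 bp around the summit it held 7 CpGs, against 50 at TUBB2A and 28 at TUBA4A. The same peaks of TUBB3 held 35 and 39. Low counts were not particular to TUBA1B, and the lowest were 2 and 3 at peaks 2 and 3 of TUBA1C. Peak 1 of TUBA1C and the TUBB6 peak held 8 each, and peaks 3 and 4 of TUBB3 held 10 each. Only 30 bases of the TUBA1B peak are given, because the stretch around them reaches an untranslated region. They held no CpG, but are too few to set beside the longer stretches.
TUBA1B, chr12:49129851-49129880, minus strand: ggagcctaggctgcagtgagcctagatggc

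Each peak value is the authors' own, from their peak caller. The pileup is the number of immunoprecipitated fragments that cover the summit, and the fold is the pileup over the local background, each raised by 1. The q-value is the caller's p-value after correction for the number of positions examined, given as −log10. Over the 33349 peaks on chromosomes 1 to 22 and X the median pileup was 10 fragments (quartiles 8 and 12), the median fold 4.18, and the median width 185 bp. The local background was recovered from pileup and fold and had a median of 1.54 fragments. No called peak had a pileup under 5, and a gene without a peak is therefore a gene where no call was made at this depth, not one shown to lack the mark.

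TUBB3, the neuronal beta isotype, carried the largest group of peaks. The summits lay 335, 2893, 8571, 9923, 11152, 12902 and 13405 bp downstream of its canonical TSS, so they ran the length of the gene (chr16:89921392-89938761, plus strand). In that order the pileups were 18, 14, 12, 16, 20, 18 and 16 fragments, all of them above the median of the whole list. The −log10 q values were 2.79, 3.26, 2.33, 4.46, 1.83, 2.43 and 1.43, and so lay on both sides of the list's median of 2.53. The lowest −log10 q in the list was 1.3. The widths were 1249, 292, 237, 184, 534, 252 and 135 bp. The widest peak covered the end of exon 1 and the start of intron 1 (chr16:89923424-89924672), and 0.036% of all peaks were wider. Of all protein-coding genes, 4.53% had 7 or more peaks. Among the 2074 genes whose assigned sequence was within 20% of the length of that of TUBB3, 82 did (3.95%).

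The folds at TUBB3 did not follow its pileups. They were 3.39, 4.25, 3.69, 4.98, 2.57, 3.10 and 2.56 from the 5' to the 3' end, and 99.9% of all peaks had a higher fold than the peak with the highest pileup. That peak, in intron 3, had 20 fragments over a background of 7.17, and 0.027% of all peaks had a higher background. The backgrounds of the 7 peaks were 4.61, 2.53, 2.53, 2.42, 7.17, 5.12 and 5.63 fragments, each above the third quartile of the list at 2.05. The gene lies near the end of the long arm of chromosome 16, and the 139 other peaks within 500 kb of its TSS had a median background of 2.72. The part of the high background in the number and height of these peaks was not tested. The 5 upstream peaks also lie inside a longer protein-coding gene model without a symbol that overlaps TUBB3, and the signal cannot be told apart between the models.

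TUBB2A and TUBB2B form a neighbouring pair of brain-rich beta isotypes on the short arm of chromosome 6 with contrasting results. TUBB2A had 1 peak (chr6:3157230-3157446), 217 bp wide, with its summit in intron 1, 52 bp past exon 1 and 189 bp downstream of the canonical TSS. It had 15 fragments over a background of 1.02, a fold of 7.90 and a −log10 q of 7.68, the highest fold and q among the 16 peaks. Only 0.126% of all peaks had a higher fold. TUBB2B had no peak, and the nearest summit outside its assigned sequence lay 11976 bp beyond it.

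The coding sequences of the pair were identical at 98.2% of aligned positions, while the initial 300 bp of intron 1, where the TUBB2A summit lies, were identical at 50.8% and the 500 bp upstream of the TSS at 48.7%. The initial 121 bp of intron 1, where the genes differ in sequence, are shown for both, with CpGs in capitals.
TUBB2A, chr6:3157286-3157406, minus strand: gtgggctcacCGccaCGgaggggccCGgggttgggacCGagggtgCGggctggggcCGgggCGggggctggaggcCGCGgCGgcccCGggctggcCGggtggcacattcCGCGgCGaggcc
TUBB2B, chr6:3227366-3227486, minus strand: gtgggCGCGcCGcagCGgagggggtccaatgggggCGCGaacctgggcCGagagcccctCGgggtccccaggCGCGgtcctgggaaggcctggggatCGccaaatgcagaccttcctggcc

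TUBB2A held 15 CpGs at a GC content of 83.5% in this stretch, and TUBB2B held 11 at 74.4%. From 100 to 500 bp downstream of the TSS the order was the other way, with a GC content of 64.8% and 37 CpGs at TUBB2A and 69.3% and 39 CpGs at TUBB2B. Every 100-mer starting in that window occurred once in the genome at both genes. The coding exons were less distinct: of the 100-mers starting there, 34.2% at TUBB2A and 32.4% at TUBB2B occurred once.

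TUBA1A, the main alpha isotype of developing neurons, had no peak. The nearest summit lay 2825 bp upstream of its nearest TSS and 1825 bp outside its assigned sequence, and it was assigned to TUBA1C, whose long transcripts begin within TUBA1A. TUBA1A shared 97.2% of its coding sequence with TUBA1B. From 100 to 500 bp downstream of the TSS, TUBA1A had a GC content of 63.8% with 34 CpGs, near the 66.3% and 38 CpGs of TUBA1B. The summit of TUBA1B lay outside that window, 1530 bp downstream of its canonical TSS, so this likeness does not bear on its peak.

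Among the widely expressed alpha isotypes, TUBA1B had 1 peak of high fold. It was 208 bp wide (chr12:49129788-49129995), with 12 fragments over a background of 0.778, a fold of 7.31 and a −log10 q of 6.13, and 0.438% of all peaks had a higher fold. Its summit lay in intron 1, 143 bp before exon 2 and 1530 bp downstream of the canonical TSS, but 248 bp downstream of an internal TSS. It therefore counts as a promoter peak only through that internal TSS.

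TUBA1C had 4 peaks, of which 1 lay within its canonical transcript. That summit was in intron 1, 1655 bp downstream of the canonical TSS, with a pileup of 8 and a fold of 4.55. The other 3 lay 73177, 19329 and 18213 bp upstream of the canonical TSS, in the span of long transcripts that extend the annotated gene to 85.9 kb, against 9.52 kb for the canonical transcript. Their pileups were 9, 8 and 7 fragments, and their folds 5.63, 5.30 and 4.71, over backgrounds of 0.778, 0.697 and 0.697. The lowest background recovered in the whole list was 0.697. These pileups were below the median of the list and their folds above it.

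TUBB, the main beta isotype of dividing cells, had no peak in its 8.10 kb, and the nearest summit lay 12557 bp outside its assigned sequence. From 100 to 500 bp downstream of the canonical TSS its GC content was 40.4% with 8 CpGs, the lowest of the 10 genes, where the others ranged from 61.6 to 79.3%. TUBB lies in the major histocompatibility region, and its 100-mers had a median of 7 further copies in the alternate sequences of GRCh38. The flanking peak upstream also had 7, and the one downstream 5. The use of alternate sequences in the authors' alignment, not given in the sources used here, was not tested.

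TUBB4B and TUBB6 had 1 peak each, away from the TSS. The TUBB4B peak was 340 bp wide (chr9:137242148-137242487), with 9 fragments, a background of 1.17 and a fold of 4.62. The summit lay in intron 3, 1021 bp from the nearest TSS, and so just outside the 1 kb limit for a promoter peak. The TUBB6 peak was 268 bp wide (chr18:12327654-12327921), with 10 fragments, a background of 1.54 and a fold of 4.34. It lay 1125 bp beyond the end of the canonical transcript, in the span of longer transcripts. From 100 to 500 bp downstream of the TSS, TUBB4B and TUBB6 had the highest GC contents of the 10 genes, 79.3 and 77.1%, and neither had a summit there.

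TUBA4A had 1 peak of 181 bp (chr2:219253644-219253824) with 8 fragments, a background of 1.08 and a fold of 4.34. Its summit lay in intron 1, 69 bp past exon 1 and 131 bp downstream of the canonical TSS. TUBA4B, a gene on the opposite strand, also spans this position, and the peak cannot be assigned to either from the list.

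**Figure D1:**
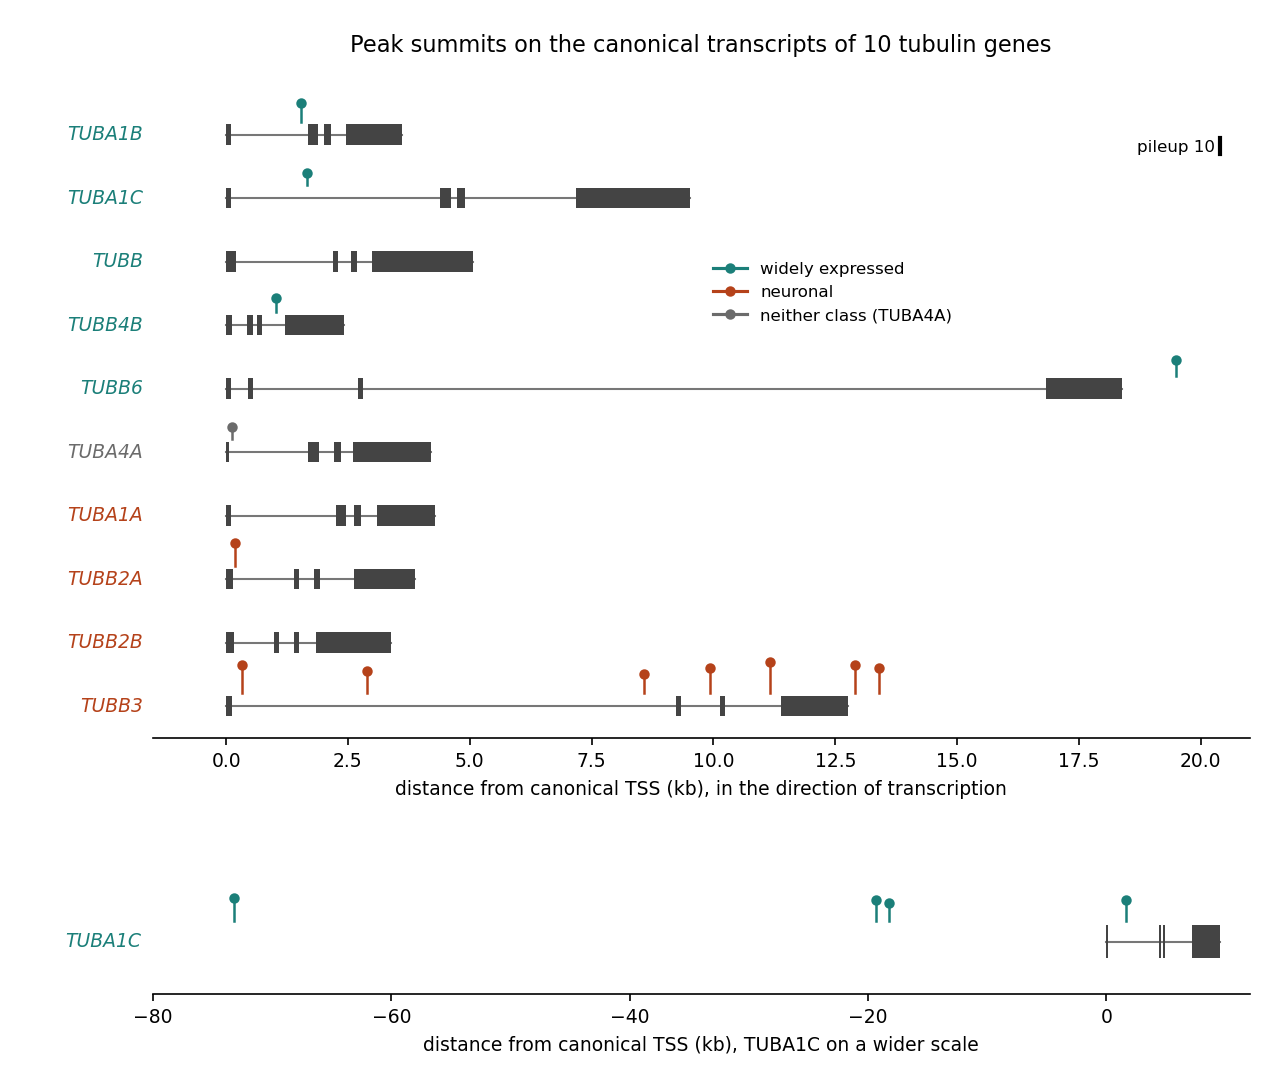
The canonical transcript of each gene is drawn from its TSS at 0 (x axis, kb in the direction of transcription), with exons as boxes, introns as lines and each peak summit as a pin whose height above the transcript is its pileup in fragments; the lower panel repeats TUBA1C on a wider scale. All 7 pins of TUBB3 lie downstream of the TSS, TUBA1A, TUBB and TUBB2B have none, and 3 of the 4 pins of TUBA1C lie upstream of the canonical transcript.

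The comparison of the widely expressed with the neuronal isotypes rested largely on TUBB3. The 5 widely expressed genes had 7 peaks, or 1.40 per gene, and 4 of them had a peak. The 4 neuronal genes had 8 peaks, or 2 per gene, and 2 of them had a peak. Without TUBB3 the other neuronal genes had 0.333 peaks per gene, below the widely expressed ones. The order also turned round with TUBB3 kept in stricter peak sets, at 0.75 per neuronal gene against 1.4 with a fold of 4 or more, and at 1 against 1.4 among peaks at or above the median −log10 q. With the canonical transcript alone the gap was wider, at 1.5 per neuronal gene against 0.6. That setting leaves out 3 of the TUBA1C peaks, the TUBB6 peak, and peaks 6 and 7 of TUBB3. Per kb of assigned sequence the widely expressed genes had 0.0494 peaks and the neuronal ones 0.209, or 0.0504 without TUBB3. The first value is weighted to the long assigned sequences of TUBA1C (86.9 kb) and TUBB6 (37.7 kb), and the last rests on 1 peak. By gene the widely expressed values were 0.217 at TUBA1B, 0.046 at TUBA1C, 0 at TUBB, 0.292 at TUBB4B and 0.0266 at TUBB6.

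Peak height differed more clearly than width. Pileups ran from 7 to 12 fragments (median 9) in the widely expressed genes and from 12 to 20 (median 16) in the neuronal genes, so the ranges met only at 12. The highest in the former was at TUBA1B, and the lowest in the latter was the third peak of TUBB3. The local background moved with the pileup, at 0.697 to 1.54 fragments in the widely expressed genes and 1.02 to 7.17 in the neuronal ones. Its part in the difference was not tested. Folds overlapped, at 4.34 to 7.31 (median 4.71) against 2.56 to 7.90 (median 3.54).

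Widths also overlapped, at 130 to 340 bp (median 197) in the widely expressed genes against 135 to 1249 bp (median 244.5) in the neuronal ones. Position differed in that all 8 neuronal summits and 4 of the 7 widely expressed summits lay downstream of the canonical TSS. The 3 widely expressed summits upstream of that TSS all belonged to the extended span of TUBA1C, and 7 of the 8 neuronal peaks came from TUBB3. Within 1 kb of a TSS lay 2 of the 8 and 1 of the 7. These are therefore values of single genes rather than of a class.

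**Figure D2:**
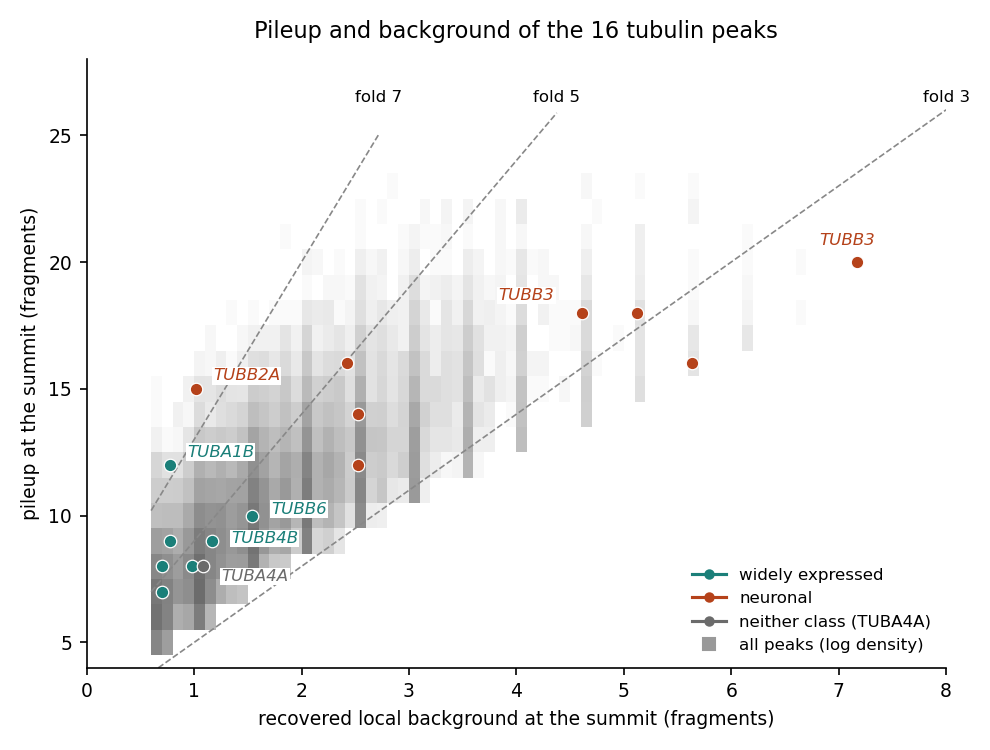
Pileup at the summit (y axis, fragments) is plotted against the recovered local background (x axis, fragments) for the 16 tubulin peaks, coloured by isotype class, over the density of all peaks in grey on a log scale; dashed lines mark equal fold, and the few peaks beyond the axes are not shown. TUBB2A and TUBA1B lie above the line of fold 7, and the 7 points of TUBB3 spread to the right, up to a background of 7.17.

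The density of peaks in each gene was set beside that of its neighbourhood, taken as the other peaks within 500 kb of the canonical TSS. TUBB3 had 0.381 peaks per kb against 0.142 around it, and TUBB2A had 0.198 against 0.0201. The 500 kb downstream of TUBB3 pass the end of chromosome 16 and were not cut there, so 0.142 understates that density. TUBA1B had 0.217 against 0.0553. At TUBB4B the values were close, 0.292 in the gene against 0.244 around it, in the most peak-rich neighbourhood of the 10 with 243 other peaks. TUBA1C (0.0460 against 0.0591) and TUBA4A (0.0343 against 0.0587) were below their neighbourhoods, and TUBB6, in the poorest, had 0.0266 against 0.0156. The genes without a peak had 57 (TUBA1A), 44 (TUBB) and 22 (TUBB2B) other peaks within 500 kb, so none of them lay in a region without calls. In that order these were 0.0573, 0.0444 and 0.0222 peaks per kb, and the assigned sequences were 5.39, 9.1 and 9.41 kb long. The part of short length and local density in the lack of peaks at these genes was not tested. A density from 1 peak in a gene of a few kb is set by that peak alone.

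**Figure D3:**
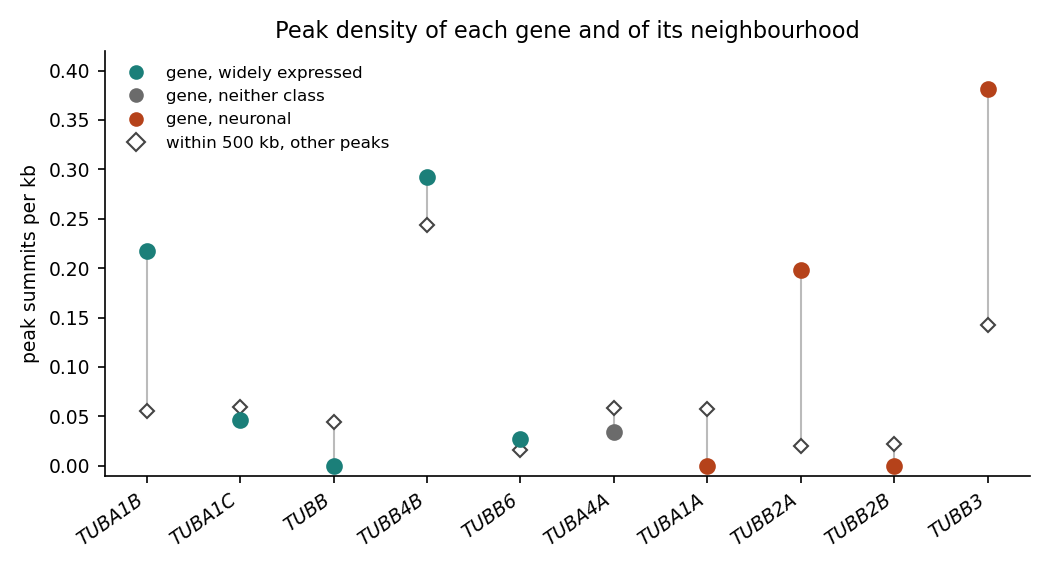
Filled circles give the peak summits per kb of each gene's assigned sequence and open diamonds those of the other peaks within 500 kb (y axis, summits per kb), with genes on the x axis ordered by class. TUBB3, TUBA1B and TUBB2A stand well above their diamonds, and TUBA1A, TUBB and TUBB2B lie at 0. The diamond of TUBB3 is somewhat low, because the span around the gene was not cut at the chromosome end.

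Within the canonical transcripts the summits lay outside exons. Each of the 10 canonical transcripts has 4 exons, with most of the coding sequence in exon 4. All 10 summits that fell in a canonical transcript lay in an intron, where introns make up 71.3% of these transcripts. Over all protein-coding genes 78% of 24675 such summits lay in introns, which make up 93.9% of that length. Exon bases were covered by the flanks of 3 peaks, 40 at TUBB2A, and 35 and 98 at TUBB3.

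In the 5 pairs of tubulin genes aligned, coding sequence was 84.4 to 98.2% identical, the initial 300 bp of intron 1 37.6 to 50.8%, and the 500 bp upstream of the TSS 45.3 to 50.1%. The share of 100-mers starting in coding sequence that occurred once in the genome was 58.4% at TUBA1B, 75.2% at TUBA1A and 73.9% at TUBA1C, and 93.6 to 100% at TUBA4A, TUBB, TUBB3, TUBB4B and TUBB6. All 100-mers of all 16 peaks occurred once. The part of repeated coding sequence in the lack of exonic summits was not tested.

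Shorter repeated sequence was present at 2 peaks of TUBA1C. Of the 32-mers read every 10 bp in the 121 bp around the summit, the commonest occurred 631 times in the genome at peak 1 and 9571 times at peak 3. Among all peaks, 9.02% had a 32-mer with 10 or more copies. At TUBA1B the commonest occurred 2 times and at peak 4 of TUBA1C 3 times, and at all other tubulin peaks only once.

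Base composition set the peaks of TUBA1B and TUBA1C apart from the other tubulin peaks. In the 401 bp around the summit the GC content was 45.6% at TUBA1B and 47.6, 47.4, 48.1 and 47.6% at the 4 peaks of TUBA1C, and 93.3 to 97.1% of all peaks had a higher value. The median of all peaks was 59.6%. TUBB4B at 57.1% and TUBB6 at 54.6% lay between the quartiles of the list, 54.1 and 64.1%. The GC content was highest at TUBB2A, 76.1%, and at the 2 most upstream peaks of TUBB3, 74.6 and 75.6%, while the other TUBB3 peaks ranged from 53.6 to 66.3%. TUBA4A, at 66.1%, was the alpha isotype with a GC-rich peak.

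**Figure D4:**
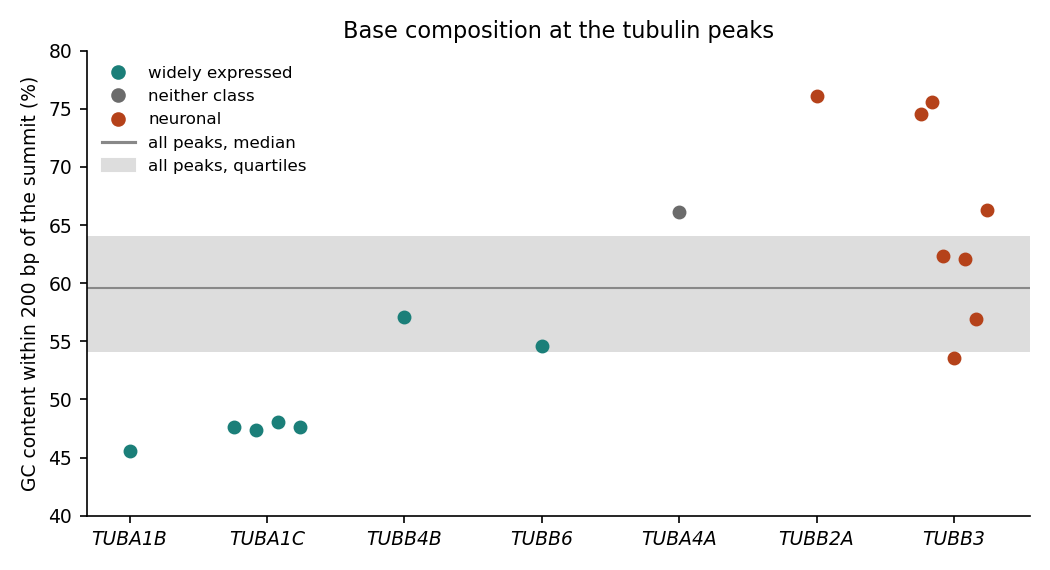
GC content of the 401 bp at each summit (y axis, %) is shown by gene, with the peaks of a gene in order from 5' to 3' and the median and quartiles of all peaks as a line and a grey band. The 5 points of TUBA1B and TUBA1C lie below the band, and TUBB2A and the initial 2 points of TUBB3 lie above 74%.

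Short motifs were searched on both strands in the 201 bp around each summit. The GC box GGGCGG, a site bound by SP-family factors, was present at 5 of the 16 peaks, those of TUBA4A and TUBB2A and peaks 1, 2 and 7 of TUBB3, and at 18.5% of all peaks. The CCAAT box was present at 3 of 16 (peak 3 of TUBA1C, peak 2 of TUBB3 and TUBB4B) and at 13.7% of all peaks. The stretch GATTACAGG, common in Alu repeats, was present at peak 1 of TUBA1C and at 4.86% of all peaks. Such matches describe the letters of the sequence only.

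Genes that act with tubulin were counted by the same rule. Of 12 other tubulin genes, 3 had a peak (25%), where 47.2% of all genes did. TUBB4A, another neuronal beta isotype, had 2 peaks with a pileup of up to 14 and a fold of 4.21 there. TUBG1, the gamma-tubulin that nucleates microtubules, had 1 peak of 10 fragments, 488 bp upstream of its canonical TSS, with a fold of 5.67. TUBD1, the delta-tubulin of centrioles, had 3 peaks of up to 10 fragments.

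Of 21 genes for tubulin folding, 11 had a peak (52.4%). TBCD, a cofactor that assembles the tubulin dimer, had 21 peaks, 8 of them near a TSS, with a highest pileup of 19 over a background of 4.61 and a fold of 3.57 there. TCP1 and CCT2, subunits of the chaperonin that folds new tubulin, had 1 peak each, of 11 and 10 fragments and folds of 5.71 and 5.87. TBCD thus had more peaks than TUBB3 by count alone. The length of TBCD was not taken into account, so these counts do not rank the genes by density.

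Of 10 genes of the gamma-tubulin complex, 5 had a peak, led by TUBGCP3 (12 fragments, fold 5.22), TUBGCP6 (12 fragments, fold 3.62) and TUBGCP2 (9 fragments, fold 4.76). Of 21 genes for enzymes and regulators of tubulin modification, 16 had a peak (76.2%), and the highest pileups were at TTLL12 (14 fragments, fold 4.18), TTLL3, a glycylase (12, fold 6.22), and TTLL11, a polyglutamylase (12, fold 3.65). Of 26 genes for microtubule-associated and severing proteins, 17 had a peak (65.4%). MAPT, which encodes the neuronal protein tau, had 14 peaks with up to 19 fragments and a fold of 5.38 there. MAP1S had 4 peaks with up to 18 fragments and MAPRE3 3 with up to 14. The lists differ in gene length, with a median assigned sequence of 9.26 kb for the 10 tubulin genes, 9.29 for the other tubulins, 19 for folding, 41.4 for the gamma-tubulin complex, 50.4 for modification and 89.1 for associated proteins, against 28.5 kb for all genes. The shares are therefore not comparable between lists.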

How the data were processed

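One H4R3me2a library and 1 input library of HCT116 cells were compared, per the labels. The submitters' processing notes name Bowtie2, MACS2, deepTools and GRCh38; versions, parameters, read filters and library depth were not given in the sources used here. Per the file headers, the deposited table holds for each peak a pileup (signal at the summit, in fragments, not normalized), a fold (ratio over local background), −log10 of the p-value and q-value, and the width in bp. The background was recomputed as (pileup + 1) / fold − 1, and with it a Poisson tail gave the deposited −log10 p-value to within 0.05 in all 33353 peaks.

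Summits on chromosomes 1 to 22 and X were assigned with GENCODE release 44. Every peak ended within its chromosome in the reference. A summit in 2 genes counted for both. Exact copies of 100-mers and 32-mers were counted on both strands of chromosomes 1 to 22, X and Y. Identities come from global alignment (Biopython 1.88; Python 3.11.15). Sequences around summits were cut to 30 bases where the 121 bp touched an annotated untranslated region. Assignment was tested on simulated summits of 200 genes and recovered the count in 200.

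The 10 genes, the lists and the isotype classes were chosen with earlier results of these data known. All 10 were named, and up to 3 genes of each other list with the highest pileup. The motifs, the 32-mers and the neighbourhoods were chosen after seeing the data. Alternatives were stricter peak sets, other windows around the TSS, the canonical transcript alone, overlap in place of summits, merging, and other classes. No p-value was computed.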

Additional observations from a re-analysis of the deposited data

How the results depend on the processing

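Among 68 alternative values of 6 results (peaks, genes with a peak, peaks per gene in both classes, and the differences of median width and pileup), 54 stayed within 1.5 times the reported value and 14 moved further. Neither difference of medians changed sign. The order of the classes in peaks per gene, 2 in the neuronal and 1.4 in the widely expressed genes as reported, turned round in 3 settings: a fold of 4 or more, −log10 q at or above the median, and without TUBB3. With a −log10 q of 5 or more, 2 peaks in 2 genes remained, those of TUBA1B and TUBB2A, giving 0.2 peaks per gene in the widely expressed class and 0.25 in the neuronal class, and differences (widely expressed minus neuronal) of -9 bp in width and -3 fragments in pileup. With a fold of 4 or more the neuronal genes had 0.75 peaks per gene against 1.4 in the widely expressed genes, and the width difference was -20 bp, against -47.5 bp as reported. Among peaks at or above the median −log10 q the neuronal genes had 1 peak per gene against 1.4. With the canonical transcript alone there were 10 peaks, and the widely expressed genes had 0.6 per gene against 1.5 in the neuronal genes. Merging of peaks less than 1 kb apart gave a width difference of -241 bp. Without TUBB3 the neuronal genes had 0.333 peaks per gene against 1.4, and the width difference was -20 bp. The pileup difference was -7 fragments as reported. Stricter sets and the canonical transcript hold fewer peaks by construction; the cause of other moves was not tested. No paired analysis was possible because each group had 1 library. Pileups of 7 to 20 fragments limit every value.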
